A study of Mus musculus with 3 samples.

Results

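The genes described here are 7 genes of antigen presentation on major histocompatibility complex (MHC) class II, out of 25685 genes with a count in the mouse brain after a transient ischemic attack (TIA). They were chosen by name for their place in the pathway. H2-Aa, H2-Ab1 and H2-Eb1 encode chains of the class II molecules at the cell surface, and are called the chain genes. Cd74 encodes the invariant chain, which fills the peptide groove until the molecule reaches the endosome. Ciita encodes the transactivator that switches on class II genes, and H2-DMa and H2-DMb1 encode the chains of H2-DM, which exchanges the invariant chain peptide for antigen peptide.

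Class II molecules hold peptides of engulfed proteins and show them to CD4 T cells. Dendritic cells, B cells and macrophages carry them constitutively or after interferon-γ, while microglia of the healthy brain carry very little. In the brain, the cells best known for class II are macrophages and dendritic cells at its borders, in the meninges, the choroid plexus and the perivascular space. The C57BL/6 strain carries a null allele of H2-Ea, the partner of H2-Eb1, and H2-Ea was not among the genes of the files.

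Brain cells of wild type (WT) C57BL6J mice were profiled by 10x Genomics 3′ single-cell sequencing, where each captured transcript receives a cell barcode and a unique molecular identifier (UMI). The groups were untreated mice (naive) and mice killed 24 h or 3 d later than a TIA, made by closing the middle cerebral artery for 5 min, and labels of these groups also read stroke. The mice were males aged 10 to 12 weeks. According to the study's methods white matter and meninges were stripped off, dead cells were removed and live cells were sorted. Each group is 1 library made from a pool of 3 mice. No replicates exist, both TIA libraries were set against the same naive library, and the intervals given are 95% intervals that cover counting error only. A difference between conditions and a difference between libraries cannot be told apart.

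Before any filter the naive, 24 h and 3 d libraries numbered 4804, 1619 and 5505 cells, and their UMIs came to 37987228, 12919691 and 48636436. Cells were kept with at least 500 detected genes and at most 7% mitochondrial UMIs, which left 4018, 1225 and 4781 cells with a median of 7750, 8123 and 7868 UMIs. Libraries shared few barcodes among the kept cells, 2 between naive and 24 h, 2 between 24 h and 3 d and 7 between 3 d and naive. The 786, 394 and 724 cells left out held 21, 4 and 7 UMIs of the chain genes, so that little class II RNA lay outside the kept cells. Levels of different genes were not ranked against each other, because 3′ UMI counts are not scaled to a common measure between genes.

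Clusters were named from marker genes, with the class II genes themselves kept out of the clustering. The brain label fitted the markers, since clusters with markers of microglia, astrocytes, oligodendrocytes, endothelial cells, pericytes, neuroblasts and fibroblasts were found. Microglia-like cells numbered 1190, 287 and 1374 in the naive, 24 h and 3 d libraries. A border macrophage-like cluster held 45, 18 and 46 cells, or 1.12%, 1.47% and 0.962% of each library. No cluster of dendritic cells formed, and such cells were sought 1 by 1 inside the border macrophage-like cluster. A pair of immune clusters could not be named, 1 of low depth and 1 with astrocyte markers, and together they made up 5.28%, 3.35% and 3.58% of the libraries.

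The border macrophage-like cluster was a mixture of immune cells. Beside the class II genes, its leading genes against other immune cells were S100a8 and S100a9 of neutrophils and monocytes and F13a1, Pf4, Wfdc17 and Mrc1. Of its 109 cells, single-cell markers typed 65 as border macrophages, 8 as monocytes, 7 as T cells, 7 as natural killer cells, 6 as B cells, 6 as neutrophils and 5 as dendritic cells, and 5 carried no type. Its cells were deep, with a median of 16465, 10685.5 and 21067.5 UMIs against 7445, 9327 and 7783 UMIs in microglia-like cells. Part of this depth came with microglial markers, which made up at least 1% of the UMIs in 26 of 45 cells of the naive library, 4 of 18 at 24 h and 32 of 46 at 3 d. In the naive library such cells had a median of 27242 UMIs and the other cells of the cluster 4770 UMIs. Whether these deep barcodes held more than 1 cell was not tested, and the doublet caller marked 122, 6 and 140 kept cells of the libraries as doublets.

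Chain gene UMIs sat in very few cells. Over all libraries 5968 UMIs of the chain genes were counted in 290 of 10024 cells, or 2.89%, and 9 of these cells held 50% of the UMIs. In the naive library 4 cells held 50%, at 24 h 2 cells and at 3 d 4 cells. The cell with the most chain UMIs, a naive cell, carried 629 of them. Each chain gene by itself gave the same picture, with 50% of the UMIs in 9 cells for H2-Aa, 9 for H2-Ab1 and 8 for H2-Eb1. A UMI was seen in 75 cells for H2-Aa, 209 cells for H2-Ab1 and 95 cells for H2-Eb1.

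The other members differed in how widely they were spread. Cd74 was nearly as concentrated as the chain genes, with 4853 UMIs in 442 cells and 50% of them in 11 cells. Ciita was sparse, with 168 UMIs in 118 cells, no more than 10 UMIs in any cell and 50% in 34 cells. The H2-DM genes were spread over many cells instead. H2-DMa had 4977 UMIs in 2337 cells, 23.3% of all cells kept, and 527 cells held 50% of them. H2-DMb1 had 2162 UMIs in 1324 cells, and 344 cells held 50%.

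**Figure D1:**
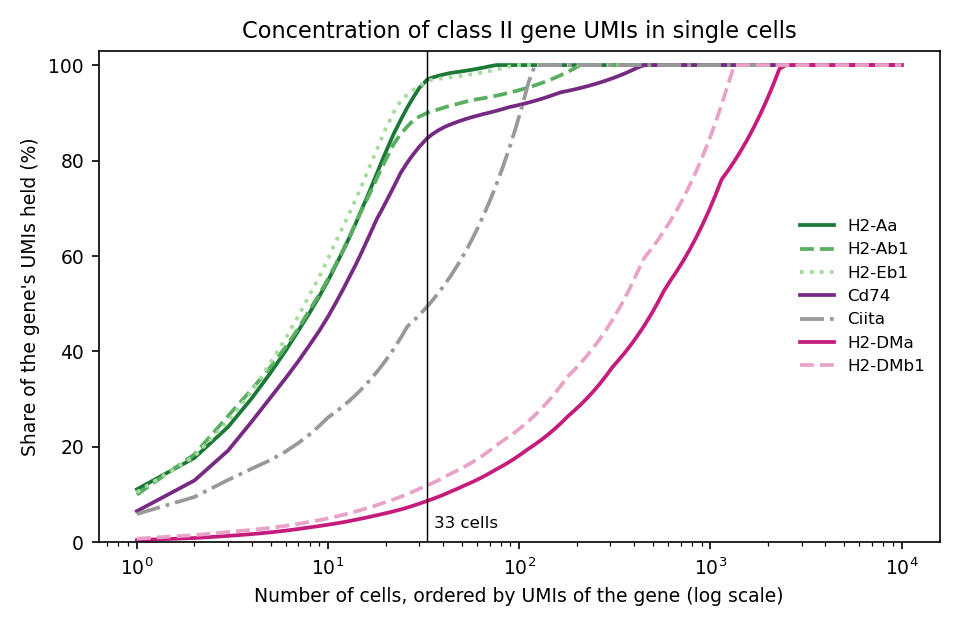
Share of each gene's UMIs (percent, vertical axis) held by the cells with the most UMIs of that gene, counted along the horizontal axis on a log scale, over the 10024 kept cells of all 3 libraries. At 33 cells, the vertical line, the curves of H2-Aa, H2-Ab1, H2-Eb1 and Cd74 stand at 96.9%, 90.0%, 96.6% and 84.7%, and those of H2-DMa and H2-DMb1 at 8.70% and 11.9%.

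A gap in the counts set the cells with much class II RNA apart. No cell had a chain gene sum between 9 and 16 UMIs. Below the gap 9734 cells had 0 UMIs and 257 cells had 1 to 9, of which 240 had 1 or 2, and above it 33 cells had 16 to 629. These 33 are called class II-rich, by a limit of 10 UMIs that was set after the counts were seen, and the name states a range of counts and not a cell type. They numbered 14 in the naive library, 4 at 24 h and 15 at 3 d, or 0.348% (0.191% to 0.584%), 0.327% (0.0890% to 0.834%) and 0.314% (0.176% to 0.517%) of the kept cells. The intervals of these shares overlapped in all 3 libraries.

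The class II-rich cells held 3379 of 3493 chain UMIs in the naive library, 474 of 524 at 24 h and 1773 of 1951 at 3 d. That was 96.7%, 90.5% and 90.9% of each library's chain UMIs. They held 84.5% of all Cd74 UMIs, 35.7% of the Ciita UMIs, 5.16% of the H2-DMa UMIs and 8.05% of the H2-DMb1 UMIs. By cluster, 28 of the 33 lay in the border macrophage-like cluster, 4 among microglia-like cells and 1 in an unnamed cluster.

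Summed over these cells the chain genes were near equal in UMIs, while single cells varied. H2-Aa made up 32.7%, H2-Ab1 33.1% and H2-Eb1 34.2% of their summed chain UMIs. Over the 33 cells the share of H2-Aa ranged from 18.8% to 60%, that of H2-Ab1 from 10% to 50% and that of H2-Eb1 from 13.2% to 48.9%. Per 10000 UMIs of a cell, H2-Aa correlated with H2-Ab1 at r = 0.95, with H2-Eb1 at r = 0.94 and with Cd74 at r = 0.93, while r was 0.68 with H2-DMa, 0.62 with H2-DMb1 and 0.45 with Ciita. These correlations describe 33 cells of 3 libraries whose barcodes differ in how much other RNA they hold. Cd74 gave between 0.506 and 1.38 UMIs for each chain UMI, with a median of 0.801.

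The class II-rich cells fell into a pair of groups by their microglial markers, at a limit of 1% of UMIs that was set after seeing the data. The 18 cells under 1% had a median depth of 6337 UMIs and a median of 263 chain UMIs per 10000. There were 10 in the naive library, 4 at 24 h and 4 at 3 d, with 2490, 474 and 651 chain UMIs. The 3 of the 18 typed as dendritic were deeper, at 2.28 to 2.57 times the median of their library. The 15 cells with at least 1% were deep, with a median of 45638 UMIs, or 5.80 times the median of their library, and a median of 16.9 chain UMIs per 10000. Of these 15, 4 were naive and 11 came from 3 d, with 889 and 1122 chain UMIs, and none came from 24 h. The chain UMIs of the naive library were thus mostly in cells under 1% microglial markers, and those of the 3 d library mostly in deep barcodes with at least 1%. Scrublet marked 1 of the 33 as a doublet, a cell of the first group at 3 d that held 110 UMIs of endothelial markers.

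Cells typed as border macrophages by single-cell markers were the most numerous holders in the group of 18. They were 11 cells with 1989 chain UMIs, 5 cells in the naive library with 1083 UMIs, 3 at 24 h with 363 and 3 at 3 d with 543. Per 10000 UMIs these cells carried 73.5 to 459 chain UMIs. In 3 of the 11 cells the monocyte gene Ccr2, with 7, 15 and 10 UMIs, outnumbered the border macrophage markers, so that the name of these cells is uncertain. Dendritic-like cells were 3, with 1120 chain UMIs, 2 in the naive library and 1 at 24 h. Of the rest, 1 naive cell with 45 chain UMIs carried the B cell genes Cd79a (10 UMIs) and Ebf1 (10 UMIs), and 3 cells with 461 chain UMIs matched no marker list.

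The dendritic-like cells differed in the dendritic genes they carried. The naive cell with 629 chain UMIs had 9 UMIs of Xcr1, 5 of Clec9a, 30 of Ifi205 and 18 of Plbd1, genes known from cross-presenting dendritic cells, and 0 of Mrc1, Pf4 and F13a1. It also had 47 UMIs of Plac8 and 3 of Ccr2, both on the monocyte list. Another naive cell, with 380 chain UMIs, had 38 UMIs of Cd209a and 8 of Clec10a, genes known from type 2 and monocyte-derived dendritic cells. The cell at 24 h, with 111 chain UMIs, had 13 UMIs of Plbd1, 6 of Kmo, 5 of Itgax, 5 of Cd209a, 4 of Flt3 and 2 of Clec10a. With 23 UMIs of Plac8 and 20 of Ccr2 it carried monocyte genes as well, so that the dendritic type of this cell and of the naive cell with Plac8 is uncertain. At 3 d no class II-rich cell under 1% microglial markers was typed as dendritic. A pair of deep cells with microglial markers also matched the dendritic list, with 448 chain UMIs in the naive library and 352 at 3 d, and they held 15 and 34 UMIs of Cd209a beside 32 and 8 UMIs of Ccr2.

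The 15 deep cells matched other immune types too. By their strongest list, 4 were typed as border macrophages with 758 chain UMIs, 2 as dendritic cells with 800, 2 as T cells with 204, 4 as B cells with 150 and 3 as monocytes with 99. The 4 typed as B cells held 3.24 to 16.9 chain UMIs per 10000, and the deepest of the 33, a 3 d barcode of 157408 UMIs in an unnamed cluster, held 16 chain UMIs. Among the cells with 200 or more chain UMIs were 5 typed as border macrophages, 4 as dendritic and 1 without a type.

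**Figure D2:**
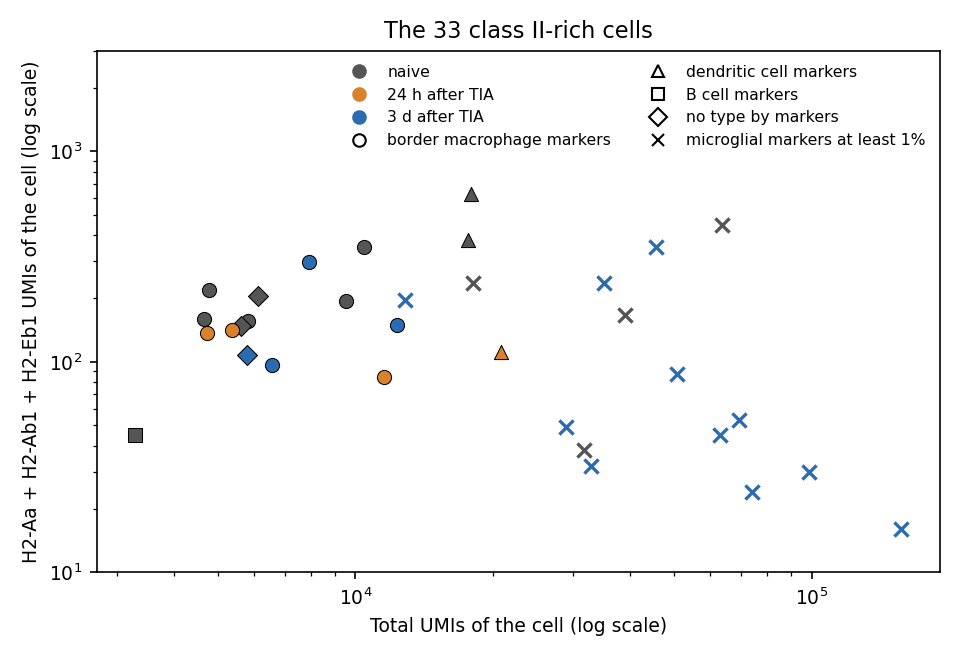
Summed H2-Aa, H2-Ab1 and H2-Eb1 UMIs (vertical axis, log scale) against total UMIs (horizontal axis, log scale) of the 33 class II-rich cells, with colour for the library and the symbol for the cell's markers. The 15 crosses, cells with at least 1% microglial marker UMIs, lie at 12825 to 157408 total UMIs, 4 from the naive library and 11 from 3 d.

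In the 18 class II-rich cells under 1% microglial markers, members outside the chain genes were higher than in microglia-like cells not class II-rich. For the chain genes the selection of the cells fixed the outcome. Levels were taken as UMIs of a gene per 1000000 UMIs of the cells compared (CPM). Cd74 stood at 15709 CPM in the 18 cells and at 21.7 CPM in the 2847 microglia-like cells that were not class II-rich. Ciita had 34 UMIs in the 18 cells, or 211 CPM (146 to 295), and 13 UMIs or 0.490 CPM (0.261 to 0.838) in those microglia-like cells. H2-DMa was at 696 CPM (573 to 837) against 143 CPM (138 to 147). H2-DMb1 was at 628 CPM (511 to 763) against 64.7 CPM (61.7 to 67.9). The H2-DM genes thus differed far less between these cells than Cd74 and Ciita did.

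Cells typed as border macrophages were themselves split in their class II level. Among the 32 cells of the cluster with border macrophage markers and under 1% microglial markers, 10 were class II-rich and 22 were not. The 10 held 1794 chain UMIs at a median depth of 6185.5 UMIs, and the 22 held 12 chain UMIs at a median depth of 3659.5 UMIs. In the naive library 4 of 11 such cells were class II-rich, at 24 h 3 of 12 and at 3 d 3 of 9. Most of their macrophage markers were lower in the class II-rich cells. Lyve1, a hyaluronan receptor of perivascular and meningeal macrophages, had 145 UMIs in the 22 cells, or 889 CPM (750 to 1046), of which a single cell held 88, and 0 UMIs in the 10 class II-rich cells. Cd209f had 42 UMIs in the 22 and 0 in the 10, and Folr2 30 and 1. F13a1 stood at 3047 CPM in the 22 and 1025 CPM in the 10, where a single cell held 48 of 76 UMIs. Ms4a7 stood at 729 and 189 CPM and Cbr2 at 380 and 27.0 CPM. Clec12a went the other way, with 73.6 CPM (38.0 to 128) in the 22 and 351 CPM (229 to 514) in the 10. Cd163 had 40 UMIs in 12 of the 22 cells, and in the 10 a single cell held 17 of its 19 UMIs.

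Other border macrophage genes were present in both kinds of cell. Mrc1 was at 3414 CPM in the cells that were not class II-rich and at 1240 CPM in the class II-rich ones, where 1 cell held 49 of 92 UMIs. Pf4 was at 1863 CPM and 310 CPM, and 1 class II-rich cell held 14 of 23 UMIs. Ccr2, the chemokine receptor of monocytes and their progeny, had 795 CPM (605 to 1026) in the class II-rich cells and 91.9 CPM (51.5 to 152) in the others. H2-DMa followed the chain genes, with 634 CPM (466 to 843) against 61.3 CPM (29.4 to 113). Ciita had 17 UMIs in the 10 cells and 0 in the 22. A Ccr2 UMI was found in 9 of the 10 class II-rich cells and 3 of the 22 others, and a Lyve1 UMI in 0 of the 10 and 13 of the 22. Neither gene by itself parted the groups of cells. With most macrophage markers lower and Ccr2 higher, the name border macrophage is uncertain for the 10 class II-rich cells.

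Seen by cluster, the border macrophage-like cells held most chain UMIs in each library. Their share was 91.3% in the naive library, 93.5% at 24 h and 72.9% at 3 d. This depended on how cells were assigned and filtered. With classes from markers of single cells, border macrophages no longer held most chain UMIs of the naive library. The naive share of the cluster was also lower when only cells that crossed both limits of the cell filter were left out. Microglia-like cells held 7.47%, 2.67% and 23.7%. Of the 463 chain UMIs in microglia-like cells at 3 d, 349 lay in 3 class II-rich cells, and of 261 in the naive library, 195 lay in 1 such cell. These class II-rich cells among the microglia were typed as border macrophages by their markers, apart from 1 typed as a B cell.

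Levels summed over all libraries put the cell types in an order that the class II-rich cells set in part. The summed chain genes stood at 1775 CPM (1727 to 1825) in the border macrophage-like cluster, 27.6 (25.7 to 29.7) in microglia-like cells, 15.7 (11.3 to 21.2) in the unnamed cells and 8.67 CPM (5.76 to 12.5) in pericytes, where the intervals of the last pair overlapped. Below came endothelial cells at 1.98 CPM (1.03 to 3.47), neuroblast-like cells at 1.15, astrocytes at 0.928, oligodendrocytes at 0.752 and dividing cells at 0.627 CPM, all with overlapping intervals, and fibroblasts at 0 UMIs in 22 cells. Without class II-rich cells the chain genes stood at 16.2 CPM (11.4 to 22.5) in the border macrophage-like cluster, 10.3 (6.75 to 15.1) in the unnamed cells, 8.67 in pericytes and 7.31 CPM (6.32 to 8.41) in microglia-like cells, where the intervals of the last 3 overlapped. The first place of the cluster rested largely on 16 UMIs at 24 h, since by library it stood at 7.49, 70.9 and 11.3 CPM, and in the naive library below the unnamed cells at 14.5 and pericytes at 13.8 CPM. At 24 h microglia-like cells, at 4.63 CPM (2.53 to 7.76), stood below the unnamed cells at 18.2 (6.69 to 39.7) and pericytes at 6.90 CPM (2.77 to 14.2), with overlapping intervals. Cd74 followed the same order at the top, with 1298 CPM (1257 to 1341), 37.2 (34.9 to 39.6) and 26.2 CPM (20.4 to 33.1) in the border macrophage-like cluster, microglia-like cells and unnamed cells. In the other classes with more than 22 cells Cd74 lay between 0.851 CPM in astrocytes and 1.32 CPM in endothelial cells, values with overlapping intervals.

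The H2-DM genes had another distribution. Microglia-like cells held 76.6% of the H2-DMa UMIs and 80.2% of the H2-DMb1 UMIs, and the border macrophage-like cluster 9.34% and 11.7%. Over all libraries H2-DMa stood at 162 CPM (147 to 177) in the border macrophage-like cluster and 143 CPM (138 to 147) in microglia-like cells. By library the cluster stood at 192, 194 and 141 CPM in naive, 24 h and 3 d. Microglia-like cells stood at 137, 145 and 146 CPM, so that the cluster was not above them at 3 d. Next came the unnamed cells at 75.6 CPM (65.5 to 86.8), and far below them neuroblast-like cells at 10.5 CPM (8.57 to 12.8), astrocytes at 9.43 (8.29 to 10.7) and pericytes at 9.29 (6.27 to 13.3), with overlapping intervals, then endothelial cells at 7.44 (5.43 to 9.96), dividing cells at 6.27 (4.66 to 8.27) and oligodendrocytes at 3.39 CPM (2.23 to 4.93). H2-DMb1 stood at 88.0 CPM (77.5 to 99.6) in the border macrophage-like cluster, 65.0 (61.9 to 68.1) in microglia-like cells, 31.8 (25.4 to 39.3) in the unnamed cells and 3.31 CPM (2.02 to 5.11) in endothelial cells. It was below 2 CPM in neuroblast-like cells, pericytes, dividing cells, astrocytes and oligodendrocytes, whose intervals overlapped. In the naive, 24 h and 3 d libraries H2-DMb1 stood at 122, 171 and 57.4 CPM in the border macrophage-like cluster. Microglia-like cells stood at 65.9, 68.4 and 63.6 CPM, so that the cluster was not above them at 3 d. Without class II-rich cells the border macrophage-like cluster stood below microglia-like cells for both genes, at 114 CPM (100.4 to 129) against 143 for H2-DMa and at 45.98 CPM (37.5 to 55.8) against 64.7 for H2-DMb1.

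Ciita was the member with the least tie to immune cells. The border macrophage-like cluster held 57 of its 168 UMIs, astrocytes 50, neuroblast-like cells 32 and microglia-like cells 19. Its level was 19.8 CPM (15.0 to 25.7) in the border macrophage-like cluster, 3.33 (2.28 to 4.71) in neuroblast-like cells, 1.93 (1.43 to 2.55) in astrocytes and 0.711 CPM (0.428 to 1.11) in microglia-like cells. Astrocytes and neuroblast-like cells thus had more Ciita per UMI than microglia-like cells, while their chain genes stood at 0.928 and 1.15 CPM against 27.6 CPM. Without class II-rich cells, microglia-like cells stood at 7.31 CPM for the chain genes and 0.490 CPM for Ciita. Dexi lies on the other strand within the Ciita locus, and which transcript gave these UMIs was not tested.

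Pericyte- and smooth muscle-like cells had UMIs of H2-Eb1 and H2-Ab1 with little Cd74. They held 16 UMIs of H2-Eb1 and 12 of H2-Ab1, each UMI in a cell of its own, or 4.96 CPM (2.83 to 8.05) and 3.72 CPM (1.92 to 6.49). Endothelial cells stood at 0.661 CPM (0.180 to 1.69) and 0.827 CPM (0.268 to 1.93). In the same pericytes H2-Aa and Ciita had 0 UMIs, which allows up to 1.14 CPM, Cd74 had 3, H2-DMb1 had 5 and H2-DMa had 30.

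At the level of whole libraries, the chain genes were lower in both TIA libraries and the H2-DM genes stayed near the naive level. The summed chain genes stood at 99.7 CPM in the naive library, 44.4 at 24 h and 42.2 at 3 d. Their log2 ratio to naive was −1.17 (−1.30 to −1.03) at 24 h and −1.24 (−1.32 to −1.16) at 3 d. Counts of H2-Aa came to 1085, 179 and 633 UMIs in the naive, 24 h and 3 d libraries, those of H2-Ab1 to 1246, 174 and 656, and those of H2-Eb1 to 1162, 171 and 662. Cd74 had 2486, 476 and 1891 UMIs, or 71.0, 40.3 and 40.9 CPM. H2-DMa had 1752, 567 and 2658 UMIs, with log2 ratios of −0.06 (−0.20 to 0.08) and 0.20 (0.11 to 0.29), and H2-DMb1 stood at 23.1, 23.6 and 23.2 CPM. Ciita had 76, 17 and 75 UMIs, and its log2 ratios of −0.59 (−1.44 to 0.18) and −0.42 (−0.90 to 0.06) included 0.

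This difference in the chain genes lay in the class II-rich cells. Without these 33 cells the chain genes had 114, 50 and 178 UMIs, or 3.28, 4.25 and 3.91 CPM, and the log2 ratio was 0.38 (−0.13 to 0.87) at 24 h and 0.25 (−0.09 to 0.61) at 3 d. The direction of the chain genes in whole libraries was thus set by 14, 4 and 15 cells. Cd74 without them stood at 6.18, 7.57 and 9.83 CPM, with a log2 ratio of 0.67 (0.43 to 0.91) at 3 d and 0.29 (−0.08 to 0.66) at 24 h.

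The border macrophage-like cluster was compared next, to ask how the level per UMI changed where most class II RNA lay. In this cluster fewer chain gene UMIs per 1000000 were counted after TIA, by a factor that was larger at 3 d. H2-Aa stood at 1104 CPM in the naive library, 645 at 24 h and 303 at 3 d. H2-Ab1 stood at 1250, 581 and 246 CPM, and H2-Eb1 at 1202, 600 and 284 CPM. All 3 chain genes were in the order naive, 24 h, 3 d, with no overlap of their intervals. The log2 ratios of the summed chain genes were −0.96 (−1.10 to −0.82) at 24 h and −2.09 (−2.19 to −2.00) at 3 d. This direction depended on how cells were assigned, since among border macrophages picked by the markers of single cells the ratios were 0.13 and −0.0745.

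Cd74 kept the same order in this cluster, with 2383 CPM in the naive library, 1521 at 24 h and 694 at 3 d. Its log2 ratio was −0.65 (−0.80 to −0.49) at 24 h and −1.78 (−1.88 to −1.68) at 3 d, against 0.25 and 0.0278 among border macrophages picked by the markers of single cells. Ciita had 28, 8 and 21 UMIs, or 31.2, 29.8 and 12.3 CPM. H2-DMa stood at 192, 194 and 141 CPM, with log2 ratios of 0.01 (−0.46 to 0.47) and −0.44 (−0.73 to −0.15). Without class II-rich cells the 3 d ratio of H2-DMa was 0.02 (−0.38 to 0.44). Its sign also turned among border macrophages picked by the markers of single cells. H2-DMb1 stood at 122, 171 and 57.4 CPM, and its 24 h interval reached that of the naive library.

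All 7 members passed the filter of 30 UMIs over both libraries in this cluster. At 24 h 2 of the 7, H2-Ab1 and H2-Eb1, were at least 2-fold lower, where 12.2% of all genes tested differed at least 2-fold either way. At 3 d 6 of the 7 were at least 2-fold lower, all but H2-DMa, against 6.05% of all genes tested. Without class II-rich cells the chain genes and Ciita had too few UMIs to be tested. Cd74 then had log2 ratios of 2.79 at 24 h and 1.16 at 3 d, and H2-DMa had −0.10 and 0.02. H2-DMb1 had 0.15 and −0.13, where it had been −1.08 at 3 d with all cells. The share of all genes past 2-fold is not given for these cells, so no count of members is read from them. With all cells the median log2 ratio of the members was −0.65 at 24 h and −1.78 at 3 d, and that of all genes tested −0.03 and 0.08.

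Sums of 6 marker lists in the cluster also differed between libraries, and none of them fell in the order naive, 24 h, 3 d. All 12 border macrophage markers were found in each library's cluster, at 2764, 5747 and 1017 CPM in the naive, 24 h and 3 d libraries, led by Mrc1, F13a1 and Stab1. The 16 dendritic cell markers summed to 778, 514 and 575 CPM, led by Fscn1 in the naive library and Wdfy4 after TIA, and Clec9a and Xcr1 were at 0 in both TIA libraries. The 7 neutrophil markers stood at 2941, 436 and 14313 CPM, led by S100a9, Csf3r and S100a8, with Ly6g at 0 at 24 h.

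The monocyte, T cell and natural killer cell lists differed too, while the sums of the B cell and microglial lists are not given. The 9 monocyte markers stood at 274, 496 and 1034 CPM, led by Ccr2 in the naive and 24 h libraries and by Chil3 at 3 d, with Ly6c2, Chil3, Ace and Treml4 at 0 at 24 h and Chil3 and Fn1 at 0 in the naive library. The 8 T cell markers stood at 204, 7.45 and 42.7 CPM, led by Trbc2 in the naive and 3 d libraries, with Cd3e, Cd3d, Cd3g, Trac, Trbc2 and Cd8a at 0 at 24 h. The 6 natural killer cell markers stood at 217, 26.1 and 142 CPM, led by Gzma, Klrb1c and Nkg7, with Gzma, Nkg7, Klre1 and Prf1 at 0 at 24 h. At 3 d, neutrophil and monocyte RNA thus made up more of the cluster's UMIs than at 24 h, and border macrophage RNA less. The part of this make-up, and of the deep barcodes, in the lower class II levels was not tested.

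Cells were also counted instead of UMIs. Of the border macrophage-like cluster, 13 of 45 cells were class II-rich in the naive library, 4 of 18 at 24 h and 11 of 46 at 3 d. Thinned to 2000 UMIs per cell, a Cd74 UMI was found in 34.1% of its cells in the naive library (20.5% to 49.9%), 33.3% at 24 h (11.8% to 61.6%) and 28.9% at 3 d (16.4% to 44.3%), after leaving out 1, 3 and 1 cells under that depth. Without thinning the shares were 40%, 50% and 54.3%. The thinned Cd74 shares were in the order naive, 24 h, 3 d, but their intervals overlapped at this number of cells. Those without thinning ran the other way. Without the class II-rich cells the cluster kept 5, 16 and 15 chain UMIs and 9, 21 and 40 Cd74 UMIs, and the log2 ratios turned upward, for Cd74 to 2.79 at 24 h and 1.16 (0.10 to 2.39) at 3 d.

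Microglia-like cells were compared to ask whether parenchymal cells took up class II expression after TIA. Over all cells of the class the chain genes were low at 24 h and near or above the naive level at 3 d. At 3 d they were lower instead when only cells that crossed both limits of the cell filter were left out. H2-Aa stood at 8.96 CPM in the naive library, 0.992 at 24 h and 7.31 at 3 d, H2-Ab1 at 11.4, 3.64 and 14.6 CPM, and H2-Eb1 at 6.88, 0 and 11.0 CPM. At 24 h 3 of the 6 members with enough UMIs, H2-Aa, H2-Ab1 and H2-Eb1, were at least 2-fold lower. Of all genes tested 5.62% differed at least 2-fold. In the naive library 1 class II-rich cell held 70 of 86 UMIs of H2-Aa, 68 of 109 of H2-Ab1 and 57 of 66 of H2-Eb1. H2-Aa and H2-Eb1 had enough UMIs only with this cell, so no conclusion is drawn from the count of 3. The log2 ratio was −3.18 (−5.48 to −1.58) for H2-Aa and −1.64 (−2.69 to −0.75) for H2-Ab1, and H2-Eb1, at 0 UMIs at 24 h, was lower by at least 2.79 on the log2 scale with the library set to a floor of 3 UMIs. At 3 d 0 of 6 members passed 2-fold, against 2.79% of all genes tested. The median log2 ratio of the 6 was −1.10 at 24 h and 0.22 at 3 d. Ciita, with 6, 3 and 10 UMIs, was not tested at either time.

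Single class II-rich cells made this difference. Removing 1 such cell in the naive library and 3 at 3 d left H2-Aa with 16, 3 and 12 UMIs, H2-Ab1 with 41, 11 and 91, and H2-Eb1 with 9, 0 and 11. After that 0 of the 4 members tested passed 2-fold at 24 h, against 5.59% of all genes tested, and 0 of 4 at 3 d, against 2.77%. H2-Aa and H2-Eb1 no longer had 30 UMIs in either comparison, and Ciita had too few with and without these cells. The summed chain genes then stood at 6.88 CPM in the naive library, 4.63 at 24 h and 8.18 at 3 d, with log2 ratios of −0.57 (−1.52 to 0.27) and 0.25 (−0.20 to 0.71). The median log2 ratio of the 4 members was 0.07 at 24 h and 0.35 at 3 d, and that of all genes tested 0.05 at both times.

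Cd74 was higher at 3 d in microglia-like cells with and without the class II-rich cells. Without them it had 151, 63 and 362 UMIs, or 15.8 CPM in the naive library, 20.8 at 24 h and 26.0 CPM at 3 d. The log2 ratio was 0.72 (0.44 to 1.01) at 3 d and 0.40 (−0.04 to 0.84) at 24 h. With them the levels were 30.6, 20.8 and 45.2 CPM, and the 24 h ratio changed sign to −0.56 (−0.97 to −0.16), while that at 3 d was 0.56 (0.36 to 0.77). Cd74 was lower instead, at −2.28 and −1.10, when only cells that crossed both limits of the cell filter were left out. H2-Ab1 was higher at 3 d without the class II-rich cells, with a log2 ratio of 0.61 (0.06 to 1.18).

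More microglia-like cells carried a Cd74 UMI at 3 d. The share of cells with a UMI was 6.97%, 13.6% and 13.8% in the naive, 24 h and 3 d libraries. Thinned to 2000 UMIs per cell it was 2.00% (1.26% to 3.01%), 3.23% (1.49% to 6.04%) and 4.22% (3.21% to 5.45%), after leaving out 89, 8 and 48 cells under that depth. Background from free RNA was read from classes that should lack the gene. Astrocytes, at a median depth of 9334, 11498 and 9307 UMIs, had a Cd74 UMI in 0.559%, 0.420% and 0.981% of cells, and in 0.113%, 0% and 0.142% after thinning, with 9, 13 and 16 cells left out. Oligodendrocytes, at 13417, 16150.5 and 12901 UMIs, had it in 0.862%, 0% and 2.00% of cells, and in 0.433%, 0% and 0.400% after thinning, with 1, 1 and 0 cells left out. The thinned share in microglia-like cells lay above both at each time. Its interval met those of both background classes at 24 h, and that of oligodendrocytes, 0.0110% to 2.39%, in the naive library. At 3 d it met neither. The intervals of microglia-like cells in the naive and 3 d libraries did not overlap.

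Of the chain genes, H2-Eb1 was close to background in microglia-like cells. H2-Aa and H2-Ab1 were above it in levels summed over all libraries, but the thinned shares of H2-Aa were not. After thinning, H2-Eb1 was found in 0.272%, 0% and 0.377% of microglia-like cells and in 0.226%, 0.444% and 0.0709% of astrocytes, shares whose intervals overlapped. Without thinning the shares were 0.840%, 0% and 0.946% against 0.336%, 0.420% and 0.280%. Thinned, H2-Aa was in 0.545%, 0% and 0.226% of microglia-like cells and 0%, 0% and 0.0709% of astrocytes, also with overlapping intervals. H2-Ab1 was in 1.18%, 0.717% and 2.04% of thinned microglia-like cells against 0%, 0% and 0.142% of astrocytes and 0% of oligodendrocytes in each library. At 3 d its interval, 1.35% to 2.95%, lay above that of astrocytes and met that of oligodendrocytes, 0% to 1.46%. Unthinned, H2-Ab1 was in 3.03%, 3.48% and 5.82% of microglia-like cells, 0.224%, 0% and 0.420% of astrocytes and 0.431%, 1.39% and 0.800% of oligodendrocytes. Over all libraries and without class II-rich cells, H2-Ab1 stood at 5.39 CPM (4.54 to 6.35) in microglia-like cells and 0.309 (0.134 to 0.609) in astrocytes, and H2-Aa at 1.17 (0.794 to 1.66) and 0.116 CPM (0.0239 to 0.339).

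The H2-DM genes were steady in microglia-like cells. H2-DMa stood at 137 CPM in the naive library, 145 at 24 h and 146 at 3 d, with log2 ratios of 0.08 (−0.08 to 0.23) and 0.09 (−0.01 to 0.19). H2-DMb1 stood at 65.9, 68.4 and 63.6 CPM, with log2 ratios of 0.06 (−0.18 to 0.28) and −0.05 (−0.20 to 0.10). Both genes were found in a large share of these cells at all times. Thinned to 2000 UMIs, H2-DMa was in 22.7%, 26.9% and 27.3% of microglia-like cells and H2-DMb1 in 13.2%, 14.0% and 13.7%, against 2.03%, 2.67% and 2.13% and 0.339%, 0% and 0% of astrocytes. Unthinned, the shares were 55.0%, 69.3% and 65.4% for H2-DMa and 36.6%, 47.0% and 41.4% for H2-DMb1.

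**Figure D3:**
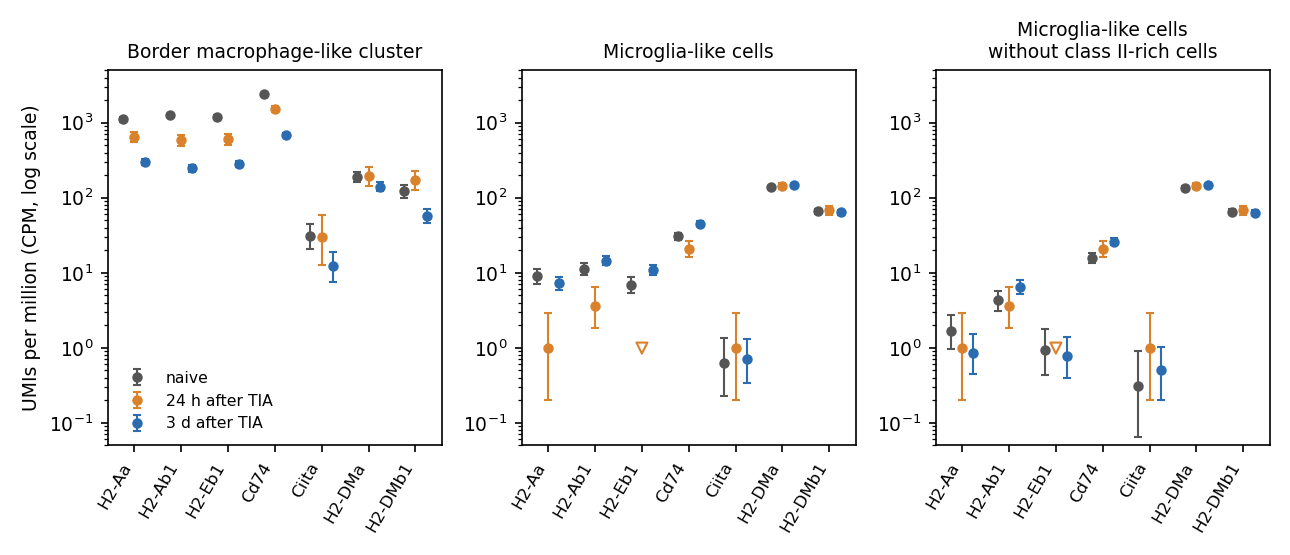
Level of each gene in UMIs per 1000000 (vertical axis, log scale) with 95% Poisson intervals that cover counting error only, in the naive, 24 h and 3 d libraries, for the border macrophage-like cluster, all microglia-like cells, and microglia-like cells without class II-rich cells. Open triangles mark 0 UMIs and stand at the level of 3 UMIs. In the border macrophage-like cluster Cd74 is at 2383, 1521 and 694 CPM, and H2-DMa in microglia-like cells at 137, 145 and 146 CPM.

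Within the microglia-like cells, Cd74 differed more between clusters than between libraries. The highest level, 51.3 CPM (45.3 to 57.9) without class II-rich cells, was in a cluster of 519 cells whose leading genes among immune cells were Lpl, Ier3, Tnf, Egr1 and Nfkbia, which include immediate early and inflammatory genes. Its level was 51.6 CPM in the naive library, 41.7 at 24 h and 55.3 at 3 d, so that Cd74 was found there in naive mice as well. Few cells carried much of it, since the top 3 cells held 43.75%, 33.3% and 31.9% of the UMIs. A Cd74 UMI was in 17.7%, 27.9% and 25.4% of the cluster's cells. A cluster led by the interferon genes Cxcl10, Ifit2, Ifit3 and Isg15 had 29.5 CPM (22.9 to 37.5). The interferon-led cluster belonged mostly to the 3 d library, with 189 of its 219 cells from 3 d, 24 from naive and 6 from 24 h.

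The remaining microglia-like clusters had less Cd74. The pair of largest clusters, with 422, 66 and 372 cells and with 316, 118 and 400 cells in the naive, 24 h and 3 d libraries, stood at 7.70 CPM (5.70 to 10.2) and 15.7 CPM (12.9 to 19.0). A small cluster of very deep cells led by hemoglobin genes stood at 21.2 CPM (16.8 to 26.4), and a cluster of 326 cells, also led by hemoglobin genes and Hspa1b, at 4.18 CPM (1.91 to 7.93). H2-DMa was more even, between 119 and 169 CPM in the same 6 clusters. Between naive and 3 d Cd74 went from 6.36 to 9.59 CPM and from 11.2 to 20.0 CPM in the pair of largest clusters. How much of the higher Cd74 at 3 d followed the mixture of clusters was not tested.

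Markers of other cells were also counted in microglia-like cells. The 12 border macrophage markers summed to 219, 269 and 237 CPM in the naive, 24 h and 3 d libraries, led by Stab1, with Cd209f at 0 in both TIA libraries and Ms4a7, Cbr2 and Clec12a at 0 at 24 h. The 16 dendritic cell markers summed to 483, 370 and 450 CPM, led by Fscn1, with Clec9a, Ifi205 and Ccr7 at 0 in the naive and 24 h libraries and Cd209a at 0 in both TIA libraries. The 9 monocyte markers summed to 28.4, 50.9 and 44.8 CPM, led by Nr4a1, with Ly6c2, Chil3 and Treml4 at 0 in the naive and 24 h libraries. The 7 neutrophil markers summed to 420, 403 and 633 CPM, and Csf3r gave 4023 of 4028, 1218 of 1220 and 6498 of 8920 of their UMIs, with S100a9, Retnlg, Mmp9 and Ly6g at 0 in the naive and 24 h libraries. The part of these RNAs in the Cd74 values of microglia-like cells was not tested.

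Further genes of the class II pathway were looked up as a list of 26, of which 25 were in the files and 23 had enough UMIs in microglia-like cells. H2-Eb2 and Cd40 did not. At 24 h 1 of the 23, Cd274, was at least 2-fold higher and none was 2-fold lower, where 5.62% of all genes tested passed, so that the count does not set the list apart. Cd274, which encodes the inhibitory ligand PD-L1, stood at 11.3 CPM in the naive library, 28.1 at 24 h and 18.1 at 3 d, with log2 ratios of 1.32 (0.89 to 1.74) and 0.69 (0.36 to 1.02). At 3 d none of the 23 passed 2-fold, against 2.79% of all genes tested. The median log2 ratio of the list was 0.16 at 24 h and 0.03 at 3 d, and that of all genes tested 0.05 at both times.

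Single genes of the list that did not pass 2-fold are given by library. Ctsb, a lysosomal cathepsin, stood at 966 CPM in the naive library, 1892 at 24 h and 1049 at 3 d, and Ifi30, the thiol reductase of the endosome, at 143, 238 and 143 CPM. H2-Oa and H2-Ob encode H2-O, which inhibits H2-DM, and like the H2-DM genes they were mostly held by microglia-like cells, with 639 of 744 and 828 of 1008 UMIs. H2-Ob stood at 33.3 CPM in the naive library, 21.5 at 24 h and 31.4 at 3 d, with a log2 ratio of −0.63 (−1.04 to −0.25) at 24 h. H2-Oa stood at 24.8, 19.8 and 24.2 CPM, with log2 ratios of −0.32 (−0.76 to 0.09) and −0.04 (−0.28 to 0.21).

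The interferon-γ pathway, which acts upstream of Ciita, and the T cell side were also looked up. Of 9 interferon-γ pathway genes 8 had enough UMIs in microglia-like cells, and 0 passed 2-fold at either time. Ifng itself had 0, 0 and 2 UMIs. The median log2 ratios of the list were 0.04 and 0.12. Of 5 genes of CD4 T cells only Lag3 had enough UMIs in microglia-like cells, with log2 ratios of 0.21 at 24 h and 0.01 at 3 d.

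In the border macrophage-like cluster the class II pathway list moved little beside the members. Of the class II pathway 17 genes had enough UMIs at 24 h, and H2-Ob and Creb1 were at least 2-fold lower, with log2 ratios of −1.17 (−3.13 to 0.34) and −1.35 (−2.19 to −0.60), where 12.2% of all genes tested passed. At 3 d 21 had enough, and H2-Oa was higher at 1.14 (0.12 to 2.30), where 6.05% of all genes tested passed, so that neither count sets the list apart. The medians were 0.13 and −0.04, and those of all genes tested −0.03 and 0.08. Of 7 interferon-γ pathway genes with enough UMIs at 3 d, 0 passed 2-fold, with a median of 0.15. Of the CD4 T cell genes, Cd3d was lower at 24 h by at least 1.67 on the log2 scale, and Cd3e and Cd3d were lower at 3 d, at −3.79 and −2.76, where the median of the 3 genes tested was −2.76. The naive cluster thus had more T cell RNA than the cluster of either TIA library.

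All 7 members were found in the GENCODE M21 annotation of GRCm38, and 5 of them lie on chromosome 17. H2-DMa lies at chr17:34119541-34139101, H2-DMb1 at chr17:34153072-34160230, H2-Ab1 at chr17:34257689-34269419 and H2-Eb1 at chr17:34305867-34316674, all on the plus strand. H2-Aa lies at chr17:34282744-34287823 on the minus strand. Cd74 lies at chr18:60803848-60812652 and Ciita at chr16:10480059-10528418, both on the plus strand. On the strand of the gene, Mir5107 overlaps Cd74 and CR974462.3 overlaps H2-DMa, and the chain genes overlap no annotated gene on their own strand. The H2-DM genes and the chain genes are therefore neighbours in the genome although they differed in which cells held their UMIs.

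Genes with the most similar pattern to the chain genes and Cd74 over 23 sums of a class and a library were looked up by Pearson correlation of log2(CPM + 1). The 10 with the highest r outside the members were Mrc1 at 0.96, Clec4a1, Klrd1 and Cytip at 0.95, and Ccl24, Slamf7, Ccr2, Gm8369, Il1b and Sh2d1b1 at 0.94. The sums share libraries and the border macrophage-like cluster holds between 19.2% of these genes' UMIs, for Sh2d1b1, and 72.4%, for Ccr2. In the class II-rich cells Ccr2 had 52.1% of its UMIs, Il1b 30.6% and Mrc1 8.62%. Of the 10 genes 7 were also among the 10 with the highest r at log2(CPM + 10). Among the members r was 0.98 for H2-Ab1, 0.96 for Cd74, 0.95 for H2-Eb1 and 0.94 for H2-Aa, which are themselves part of the pattern. For H2-DMa r was 0.84, for H2-DMb1 0.83 and for Ciita 0.65.

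Promoters were searched because class II genes are known to share upstream X and Y boxes. Sequences are from RefSeq on GRCm38.p6, 250 bases before to 50 after a gene's start, and 4 of the 7 members had entries, H2-Aa, H2-Eb1, H2-DMa and H2-DMb1. H2-Ab1, Cd74 and Ciita had none. The search was for GNAAC followed after 15 to 30 bases by TGATTGG, on either strand, and these letters were chosen after the sequences were seen. The pair was found in 154 of 32851 promoters, or 0.469%, and TGATTGG by itself in 2568, or 7.82%. H2-Aa, H2-Eb1 and H2-DMb1 had the pair, and so did H2-Oa, H2-Ob and H2-Eb2, while neither entry of H2-DMa had it and H2-DMb2 had TGATTGG alone. The stretches are shown because the same pair of motifs stands at genes that differed in how widely their UMIs were spread over cells, H2-Aa and H2-Eb1 on one side and H2-DMb1, H2-Oa and H2-Ob on the other. The motifs are in capitals with 10 bases on each side, and a match of letters is a description and not evidence of binding. The stretches lie at chr17:34287857-34287914 on the minus strand for H2-Aa and, on the plus strand, at chr17:34305766-34305822 for H2-Eb1, chr17:34153087-34153144 for H2-DMb1, chr17:34092293-34092350 for H2-Oa and chr17:34238808-34238862 for H2-Ob.
H2-Aa: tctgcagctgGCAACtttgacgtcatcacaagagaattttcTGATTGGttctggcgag
H2-Eb1: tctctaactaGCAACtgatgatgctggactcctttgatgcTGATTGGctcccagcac
H2-DMb1: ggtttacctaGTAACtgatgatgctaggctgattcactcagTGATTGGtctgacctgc
H2-Oa: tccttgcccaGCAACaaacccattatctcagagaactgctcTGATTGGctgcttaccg
H2-Ob: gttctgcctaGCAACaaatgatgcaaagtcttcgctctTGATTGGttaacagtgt
Between the motifs lay 26 bases in H2-Aa, H2-DMb1 and H2-Oa, 25 in H2-Eb1 and 23 in H2-Ob.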

How the data were processed

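The members, marker lists and pathway lists were chosen with earlier results of these data known. The deposited values are whole UMI counts per gene and cell, which the authors made with CellRanger on mm10, 7.1.0 per the matrix headers and 3.1.0 per the labels, and whether intronic reads were counted is not given. Cells were clustered with Seurat 5.3.0 in R 4.3.3 (vst, 2000 variable genes, class II genes left out, depth and mitochondrial share regressed out, 20 principal components, resolution 0.5). Immune clusters were clustered once more, and a cluster was named when at least 3 markers of a list were in at least 10% of its cells and 2-fold above the other clusters, from 23 lists. UMIs were summed per class and library in Python 3.11.15 with scipy 1.17.1 and scaled to 1000000 UMIs, with exact Poisson, conditional binomial and Clopper-Pearson intervals at 95%. A gene was compared at 2-fold when both sums together reached 30 UMIs, and a sum of 0 was set to 3 UMIs. Scrublet in scanpy 1.11.5 served as doublet caller. The text names all members, the genes of the class II pathway and CD4 T cell lists past 2-fold, and the 10 genes of most similar pattern among those with at least 50 UMIs. Other pathway genes and the markers of single cells were named after their values were seen. Alternatives changed the cell filter, the variable genes, the resolution, doublets, the naming of cells, scaling, minimum, fold, thinning and pseudocount. After seeing the data, alternatives without class II-rich cells, with the unnamed immune clusters added to microglia, and with limits of 5 and 20 UMIs for class II-rich cells were added.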

Additional observations from a re-analysis of the deposited data

Results flagged for a closer look

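At 3 d, 3 members stood on opposite sides of the naive library in the classes compared, higher in microglia-like cells and lower in the border macrophage-like cluster. H2-Ab1 had a log2 ratio to naive of 0.36 in microglia-like cells and −2.35 in the border macrophage-like cluster. H2-Eb1 had 0.68 and −2.08, and Cd74 had 0.56 and −1.78. Each class and time is 1 library, and the difference between the classes was not tested. Without the class II-rich cells the opposite direction was gone for Cd74, at 0.72 in microglia-like cells and 1.16 in the border macrophage-like cluster, and for H2-Ab1, at 0.61 and 0.18 with 4 and 9 UMIs in the cluster. H2-Eb1 then had 9 and 11 UMIs in microglia-like cells and 1 and 1 in the cluster, too few to compare.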

How the results depend on the processing

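Of 193 values under alternatives, 119 moved by less than their counting interval or 1.5-fold in a count, 58 moved further and 16 changed sign. A resolution of 1, scaling by the median ratio of genes, and the alternatives chosen after seeing the data with unnamed immune clusters added to microglia or with limits of 5 and 20 UMIs moved none of the values run under them. With a pseudocount of 10, 7 of the 10 genes of most similar pattern were shared, within the 1.5-fold limit. No paired analysis was possible because each condition is 1 pool of mice. The cause was not tested for the shifts below unless one is named. Values are given as log2 ratios to naive in microglia-like cells (M) and the border macrophage-like cluster (B), at 24 h and then 3 d where both are given.

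With only cells that crossed both limits left out, B held 60.3% of the naive chain UMIs, chain genes were −5.00 and −2.08 in M and −0.78 and −1.78 in B, and Cd74 was −2.28 and −1.10 in M and −1.55 at 3 d in B. With class II genes among the variable genes, B held 96.9% of the naive and 85.1% of the 3 d chain UMIs, chain genes were −0.59 and 1.21 and Cd74 0.38 and 1.06 in M. At resolution 0.2 these shares were 97.1% and 78.6%, chain genes were −0.61 and 2.22 in M and −1.22 and −2.90 in B, and Cd74 was 0.46 and 1.46 in M and −0.92 and −2.56 in B. Without doublets the 3 d values in B were −2.24 for the chain genes and −1.93 for Cd74. With classes from markers of single cells, B held 37.8%, 71.8% and 54.6%, chain genes at 24 h were −0.47 and Cd74 0.33 in M, and B had chain genes at 0.13 and −0.0745, Cd74 at 0.25 and 0.0278 and H2-DMa at 0.0340 at 3 d. Without the 5 cells of each library with the most class II UMIs, chain genes were −1.22 and 0.66 and Cd74 0.73 and 0.93 in M, and −5.28 and −2.91 and −4.80 and −2.24 in B, where the 24 h library has 4 class II-rich cells and loses all of them. Without class II-rich cells, chosen after seeing the data, M had chain genes at −0.57 and Cd74 at 0.40 at 24 h, and B had chain genes at 3.24 and 0.60, Cd74 at 2.79 and 1.16 and H2-DMa at 0.0218 at 3 d, where the cells that hold most of the UMIs are gone by construction. The direction of the chain genes and Cd74 in B thus rested on how cells were assigned and on few cells, and in M it rested on the cell filter at 3 d and, for Cd74 at 24 h, on cell assignment and few cells.

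Without thinning, the share of M with a Cd74 UMI was 6.97%, 13.6% and 13.8%, and thinned to 1000 UMIs 1.18% in the naive library and 2.49% at 3 d. Genes past the fold numbered, with a minimum of 100 UMIs and with a limit of 1.5-fold, 220 and 1842 in M at 24 h, 106 and 1137 in M at 3 d, 162 and 2011 in B at 24 h and 135 and 1690 in B at 3 d, which follows from the stricter and looser limits. The chain genes in M without class II-rich cells had few UMIs, and the 24 h library was the smallest.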

Other observations

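T cell RNA in the cluster with most class II RNA differed between libraries. In the border macrophage-like cluster the 8 T cell markers had 183 UMIs in the naive library, 2 at 24 h and 73 at 3 d, and Cd4 itself had 4, 1 and 3 UMIs. Lag3, whose product binds class II molecules, stood at 87.0, 112 and 97.7 CPM in the same cluster and in microglia-like cells at 131 CPM in the naive library, 151 at 24 h and 131 at 3 d. March1, a ubiquitin ligase that removes class II molecules from the cell surface, stood at 344, 364 and 418 CPM in microglia-like cells, with a log2 ratio of 0.28 (0.22 to 0.34) at 3 d. Cd83 and Cd86, both known from activated antigen-presenting cells, stood there at 329, 366 and 335 CPM and at 473, 462 and 497 CPM. These genes were named after their values were seen.

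A single cell could carry a whole class in the smallest sums. All 6 H2-Eb1 UMIs of astrocytes at 24 h lay in 1 of 238 cells, while H2-Aa and H2-Ab1 had 0 UMIs in the astrocytes of that library. In the naive library 1 cell of the interferon-led microglial cluster held 195 of the 261 chain UMIs of microglia-like cells, with 19 UMIs of Mrc1 and 13 of Pf4 beside 0.294% microglial markers. H2-Eb2 had 11 UMIs over all cells kept, and its promoter entry holds the same pair of motifs as that of H2-Eb1.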
